A study of Mus musculus with 10 samples.

Results

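The cytoplasmic ribosomal proteins of mouse liver were taken by name: every protein-coding row of the deposited gene table whose symbol begins with Rpl or Rps and a digit, or with Rplp0, Rplp1 or Rplp2, without the kinases named Rps6k and without names holding -ps. This gave 85 genes of the 54532 in the table, 52 of the large (60S) subunit and 33 of the small (40S) subunit. The name rule took in Rps19bp1, which encodes a protein that binds Rps19 and is not part of the ribosome. It left out Rpsa, Rack1 and Fau, which encode ribosomal components under other names, and Rps4l, which the table lists as a pseudogene.

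RNA was sequenced from whole livers of 5 mice given napabucasin (BBI608), a quinone known as a STAT3 inhibitor, at 20 mg/kg daily by gavage over 7 days, and of 5 mice given only its vehicle, 1% sodium carboxymethyl cellulose, on the same schedule. The sources used here do not give the strain, sex, age or genotype of the mice. The study asked which genes and pathways of the liver the drug affects. Per the labels' protocols, libraries came from poly-A selected RNA, and read counts per gene were deposited.

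The ribosome turns messenger RNA into protein. Its small subunit holds the messenger RNA and the decoding site, and its large subunit joins amino acids and carries a flexible stalk that calls in the elongation factors. Ribosomal protein messages are among the most abundant in hepatocytes, which make the proteins of blood plasma. In mammals these messages begin with a run of pyrimidines, the 5′ terminal oligopyrimidine (TOP) motif, through which mTOR signalling sets how well they are translated.

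The start regions of 8 members are shown as examples. In all, 3 sequence features were searched in the 65 members with a matched RefSeq promoter. Each is the genomic strand that reads like the RNA, 25 bases before the annotated start and 25 from it on, from RefSeq on build GRCm38.p6. Capitals mark CTTTC (a pyrimidine run), CGGAAG or its reverse complement CTTCCG (the core to which ETS-family factors such as GABP bind) and TATAAA. The last has the letters of the TATA box, but in Rplp0 and Rps2 it lies after the annotated start. Matches of CGGAAG and TATAAA outside the printed bases were counted but are not shown. Rps28 has both there, and Rps2 and Rplp2 have CGGAAG there.
Rpl5, chr5:107900503-107900552, plus strand: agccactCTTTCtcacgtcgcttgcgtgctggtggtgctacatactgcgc
Rplp2, chr7:141447626-141447675, plus strand: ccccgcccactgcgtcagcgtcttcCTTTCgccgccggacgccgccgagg
Rpl38, chr11:114668555-114668604, plus strand: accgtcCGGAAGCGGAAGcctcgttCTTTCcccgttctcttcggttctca
Rpl31, chr1:39367826-39367875, plus strand: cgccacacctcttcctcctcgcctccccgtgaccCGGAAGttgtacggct
Rps7, chr12:28635929-28635978, minus strand: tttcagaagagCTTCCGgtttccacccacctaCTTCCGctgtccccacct
Rplp0, chr5:115559442-115559491, plus strand: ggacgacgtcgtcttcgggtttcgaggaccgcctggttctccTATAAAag
Rps2, chr17:24720038-24720087, plus strand: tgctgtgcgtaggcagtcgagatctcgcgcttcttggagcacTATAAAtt
Rps28, chr17:33824538-33824587, minus strand: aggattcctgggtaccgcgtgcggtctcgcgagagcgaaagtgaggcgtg

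A RefSeq promoter was matched for 65 of the 85 members. CTTTC lay in the 50 bases around a start, on the strand that reads like the RNA, in 20 of the 65 members (30.8%) and in 7.87% of 27025 genes. Within the 300 bases from 250 before to 50 after the start, CGGAAG was found on either strand in 43 of 65 members (66.2%) and in 18.8% of all genes. TATAAA was found on either strand in 7 of 65 members (10.8%) and in 15.7% of all genes. These are matches of letters and not shown binding sites. The median log2 fold change was -0.25 over 19 tested members with CTTTC and -0.27 over 43 without it, and -0.26 over 42 with CGGAAG and -0.28 over 20 without it. It was -0.31 over the 7 members with TATAAA, all below 0, and -0.25 over 55 without it, of which 49 lay below 0. These differences were not tested.

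Library totals were 14124484 to 17759967 counts, and 14244 genes passed the filter on low counts and were tested with edgeR's quasi-likelihood test. No gene passed the threshold of 0.05 after Benjamini-Hochberg adjustment, where the smallest adjusted p was 0.0644, while an unadjusted p under 0.05 was reached by 1331 genes with higher and 830 with lower values in napabucasin livers. Napabucasin libraries 1 and 2 stood apart from the other napabucasin libraries, with the highest shares of counts in nuclear ribosomal RNA, 0.178% and 0.180%, against 0.0428% to 0.0892% in the other 8. Vehicle library 1 held 19.0% of its counts on the mitochondrial chromosome, napabucasin library 1 held 19.9% and napabucasin library 2 held 15.3%, and the other 7 held 7.03% to 11.4%. Of 12 hepatocyte markers 11 were measured, and together they took 79027 to 135099 CPM (counts scaled to a common depth) in napabucasin livers and 55844 to 163716 CPM in vehicle livers. CPM values use library sizes scaled by TMM, edgeR's trimmed mean of M-values.

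Most ribosomal protein messages were a little lower in napabucasin livers, and none passed the test across all genes. Of the 85 members, 82 passed the filter, 49 of the large and 33 of the small subunit. Among these, 41 of 49 large-subunit genes and 32 of 33 small-subunit genes had a log2 fold change (napabucasin over vehicle) below 0, beside 49.9% of all genes tested. The median was -0.23 for the large subunit and -0.25 for the small subunit, against 0.00 over all genes, and members ran from -0.63 for Rpl3 to 0.37 for Rpl17. At an adjusted p under 0.05, 0 members were called, as were 0.0% of all genes in either direction. At an unadjusted p under 0.05, 2 members were lower (Rps28 and Rps21), a share of members below the 5.83% of all genes, and 0 were higher, beside 9.34% of all genes.

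In no member did all napabucasin libraries lie below all vehicle libraries, a pattern seen in 0.934% of all genes, nor above them (1.21% of all genes). The count of 2 lower members turned on single libraries: it was 18 without napabucasin library 4 (background 8.0%), 10 without vehicle library 1 (8.24%), 1 without napabucasin library 1 (4.0%), napabucasin library 2 (3.17%) or vehicle library 5 (3.15%), and 0 without vehicle library 3 (3.59%). With the replicate number as a block it was 16, 11 of the large and 5 of the small subunit, where 8.81% of all genes were lower, and again 0 members passed after adjustment, the smallest edgeR adjusted p being 0.131 for Rpl3. In the other fits whose counts differ, 2.54% of 14244 genes were lower with library size only and 11% with limma-voom. With a gene length offset 6.48% of them were lower, and with that offset and the block 10.1%. Over 26567 genes, low ones included, the shares were 5.31% without a filter, 4.0% with DESeq2 and 4.19% on unfiltered FPKM. Shares over 26567 genes are not on the same footing as those over 14244.

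**Figure D1:**
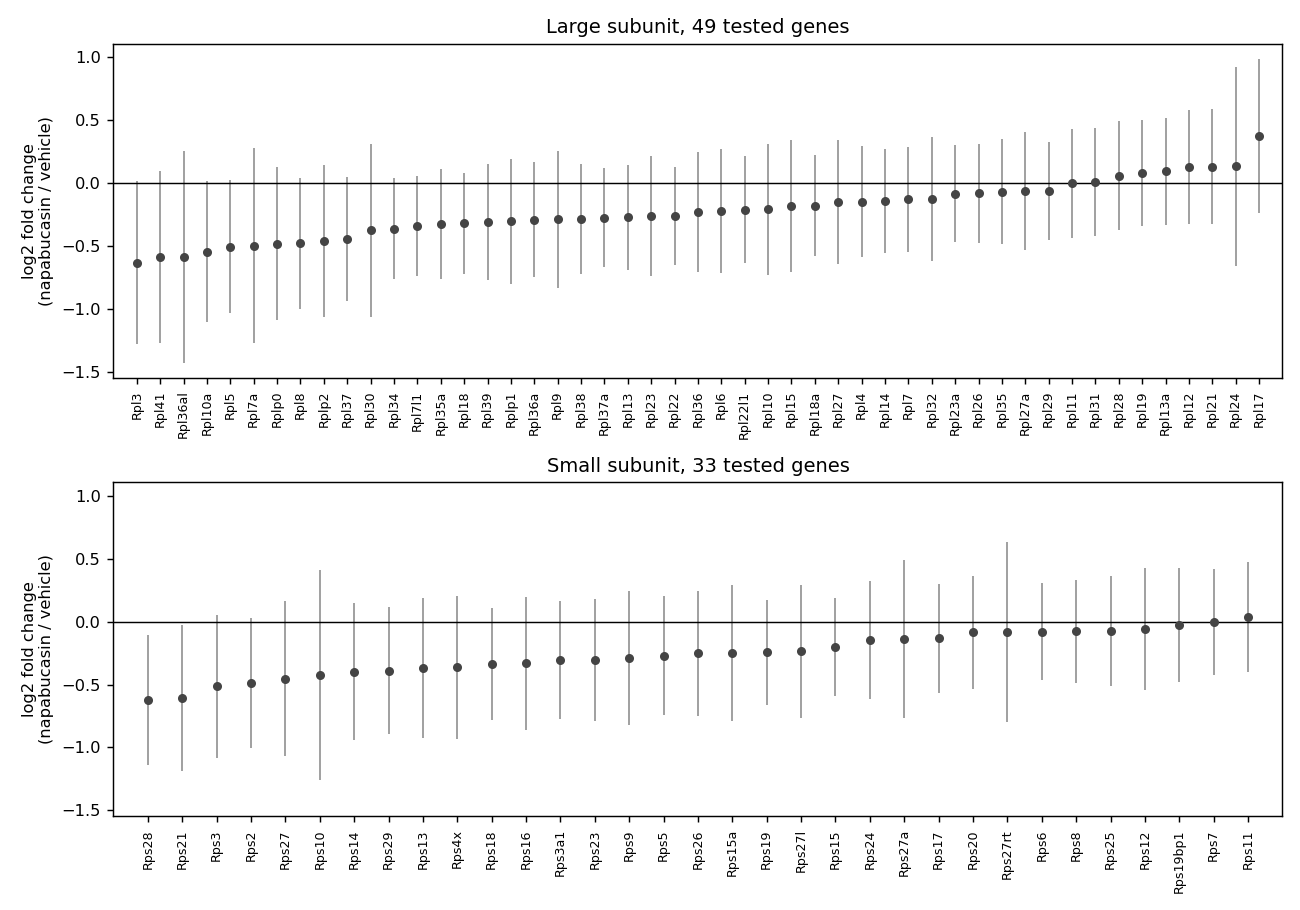
Log2 fold change (napabucasin over vehicle, vertical axis) of each tested member, sorted within the large subunit (49 genes, upper panel) and the small subunit (33 genes, lower panel); points are edgeR estimates and bars 95% intervals. Nearly all intervals cross 0, and the points lie below 0 for 41 large-subunit and 32 small-subunit genes.

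Napabucasin libraries 1 and 2 held most of the difference. For each library the log2 CPM of each gene was set against that gene's mean over the 10 libraries, and the median was taken over a subunit. For the large subunit these medians were -0.585, -0.266, 0.113, 0.181 and -0.039 in napabucasin libraries 1 to 5, against 0.184, 0.116, 0.271, 0.006 and 0.053 in vehicle libraries 1 to 5. Those of the small subunit were -0.775, -0.366, 0.105, 0.311 and -0.041 in napabucasin libraries, against 0.235, 0.144, 0.325, 0.031 and 0.074 in vehicle libraries. Napabucasin libraries 1 and 2 were the lowest of the 10 for both subunits, napabucasin library 5 lay just below all vehicle libraries, and napabucasin libraries 3 and 4 lay within the vehicle range. Napabucasin library 1 was the lowest of the 10 for 64 of 82 members, against 22.6% of all genes tested.

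Without napabucasin library 1 the medians were -0.12 for the large and -0.13 for the small subunit, and 61 members lay below 0 (51.9% of all genes), against 77 without vehicle library 5 (50%). When the 3 libraries richest in ribosomal RNA (napabucasin 1, napabucasin 2 and vehicle 2) were left out, they were -0.026 and -0.021, and 27 of 49 large-subunit and 18 of 33 small-subunit genes lay below 0, beside 50.1% of all genes, with 0 members lower at an unadjusted p under 0.05 (3.42% of all genes). When the 3 richest in mitochondrial counts (napabucasin 1, napabucasin 2 and vehicle 1) were left out, the medians were -0.0071 and -0.041, 27 and 22 genes lay below 0 (50.5% of all genes), and again 0 were lower at that p (4.35%). The part of ribosomal RNA carry-over, RNA quality or mitochondrial share in the difference was not tested. Vehicle library 2 was rich in mitochondrial ribosomal RNA (0.823% of counts, against 0.917% and 0.908% in napabucasin libraries 1 and 2), while its nuclear ribosomal RNA share was 0.0892%.

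**Figure D2:**
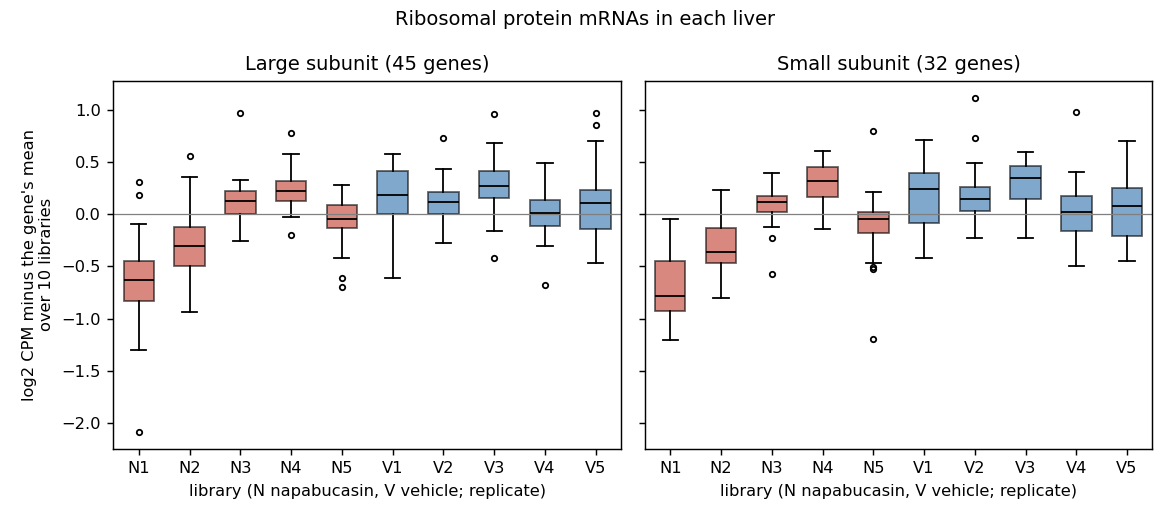
Log2 CPM of each ribosomal protein gene minus its mean over 10 libraries (vertical axis), as a box per library, napabucasin (N1 to N5, red) and vehicle (V1 to V5, blue), for the 45 large-subunit and 32 small-subunit genes whose mean FPKM reached 10; boxes are quartiles, whiskers reach at most 1.5 box lengths and circles are genes beyond. N1 and N2 lie lowest in both subunits, and N3 and N4 overlap the vehicle libraries.

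As a share of all counts, the 52 large-subunit genes took 0.678%, 0.974%, 1.19%, 1.33% and 0.996% in napabucasin libraries 1 to 5, against 0.990%, 1.35%, 1.14%, 1.10% and 1.03% in vehicle libraries 1 to 5. The means were 1.03% ± 0.247 in napabucasin and 1.12% ± 0.141 in vehicle libraries (SD, n = 5 each). The 33 small-subunit genes took 0.699% ± 0.189 in napabucasin and 0.779% ± 0.115 in vehicle libraries. These differences in share were smaller than the spread within the groups. In percentage points, the large-subunit difference of -0.090 was -0.0012 without napabucasin library 1, -0.033 without vehicle library 2 and -0.164 without napabucasin library 4, and the small-subunit difference of -0.080 was -0.015, -0.033 and -0.142 without the same libraries. Large-subunit counts were 1.49 ± 0.051 times small-subunit counts in napabucasin and 1.45 ± 0.030 times in vehicle libraries. By library this ratio was 1.54, 1.498, 1.49, 1.41 and 1.51 in napabucasin libraries 1 to 5, against 1.48, 1.3997, 1.45, 1.44 and 1.46 in vehicle libraries 1 to 5. Napabucasin library 4 lay within the vehicle range and the other 4 above it, a difference that was not tested. In bulk liver, fewer cells of a type and less RNA per cell cannot be told apart.

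In the small subunit the smallest p-values belonged to Rps28, Rps21, Rps2, Rps3, Rps29 and Rps18, each below all vehicle livers in napabucasin livers 1 and 2. With the replicate block the unadjusted p was 0.0134, 0.0121, 0.0296, 0.0173, 0.0740 and 0.135 in that order, with an edgeR adjusted p of 0.141 to 0.378. The napabucasin liver was the lower in 5 of 5 pairs of equal number for Rps2 and in 4 of 5 for the other genes. Rps28 (ENSMUSG00000067288, chr17:33819027-33824562, build GRCm38), a short protein of the head, measured 20.4, 31.0, 29.6, 56.9 and 46.0 CPM in napabucasin livers 1 to 5, against 59.9, 52.9, 66.5, 50.8 and 53.8 CPM in vehicle livers 1 to 5. Napabucasin liver 4 lay among the vehicle livers and the other 4 lay below all of them. The log2 fold change was -0.62 (SE 0.24, 95% interval -1.14 to -0.11, unadjusted p = 0.0216, edgeR adjusted p = 0.284).

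Rps21 (ENSMUSG00000039001, chr2:180257377-180258445), needed in yeast to mature the small-subunit RNA, measured 23.4, 25.1, 41.7, 63.9 and 31.8 CPM in napabucasin livers, against 39.6, 58.7, 65.0, 49.2 and 71.0 CPM in vehicle livers. The groups overlapped: napabucasin liver 4 lay above vehicle livers 1, 2 and 4, and napabucasin liver 3 above vehicle liver 1. Its log2 fold change was -0.61 (SE 0.27, unadjusted p = 0.0409, edgeR adjusted p = 0.317).

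Rps2 (chr17:24718116-24721929) and Rps3 (chr7:99477896-99483738) line the channel through which messenger RNA enters. Rps2 was among the most abundant members, with 299, 393, 595, 616 and 632 CPM in napabucasin livers, against 724, 545, 785, 697 and 805 CPM in vehicle livers. Only vehicle liver 2 lay within the napabucasin range. Rps3 measured 182 ± 68.9 CPM in napabucasin and 260.4 ± 60.6 CPM in vehicle livers (SD, n = 5 each), where napabucasin liver 4, at 297 CPM, was higher than 4 of the 5 vehicle livers. Their log2 fold changes were -0.49 (SE 0.24, edgeR adjusted p = 0.350) for Rps2 and -0.51 (SE 0.26, edgeR adjusted p = 0.365) for Rps3.

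Rps29, a zinc-binding protein of the head, measured 45.3 ± 16.3 CPM in napabucasin and 59.3 ± 8.85 CPM in vehicle livers, and Rps18, which touches the large subunit from the head, 296 ± 67.5 CPM in napabucasin and 375 ± 50.3 CPM in vehicle livers. Neither passed (log2 fold changes -0.39 and -0.34, edgeR adjusted p = 0.429 and 0.434).

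Rps6 (chr4:86854660-86857412), the substrate of S6 kinase below mTOR, measured 308, 406, 450.1, 481 and 415 CPM in napabucasin livers, against 445, 416, 465, 435 and 416 CPM in vehicle livers. Napabucasin livers 1, 2 and 5 lay below all vehicle livers, liver 3 among them and liver 4 above them. The log2 fold change of Rps6 was -0.08 (95% interval -0.47 to 0.31, edgeR adjusted p = 0.843), and it was 0.010 without napabucasin library 1. Rps19 (chr7:24884371-24889806), the gene most often mutated in human Diamond-Blackfan anaemia, measured 117 ± 27.7 CPM in napabucasin and 139 ± 20.0 CPM in vehicle livers (log2 fold change -0.24, 95% interval -0.66 to 0.18, edgeR adjusted p = 0.538).

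In the large subunit the smallest p-values belonged to Rpl10a, Rpl3, Rpl5, Rpl8, Rpl34 and Rpl37, and none was under 0.05. With the replicate block all 6 were, at unadjusted p = 0.0134, 0.00989, 0.0402, 0.0184, 0.0485 and 0.0275 in that order of genes, and the edgeR adjusted p ran from 0.131 to 0.240. Within pairs of equal number, the napabucasin liver was the lower in 5 of 5 pairs for Rpl10a, Rpl3 and Rpl8 and in 4 of 5 for Rpl5, Rpl34 and Rpl37. Rpl10a (ENSMUSG00000037805, chr17:28328471-28331033), the protein of the L1 stalk by which spent transfer RNA leaves, measured 115, 122, 167, 254 and 167 CPM in napabucasin livers, against 141, 223, 292, 269 and 279 CPM in vehicle livers. Vehicle liver 1 lay among the low napabucasin livers, and napabucasin liver 4 among the high vehicle livers. The log2 fold change was -0.55 (SE 0.26, unadjusted p = 0.0552, edgeR adjusted p = 0.338).

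Rpl3 (ENSMUSG00000060036, chr15:80077791-80091868), which reaches toward the peptidyl transferase centre, measured 105, 134, 171, 262 and 195 CPM in napabucasin livers, against 144, 194, 326, 279 and 398 CPM in vehicle livers. Vehicle livers 1 and 2 overlapped the napabucasin livers and vehicle livers 3 to 5 lay above all of them. This was the lowest fold change of all members, -0.63 (SE 0.30, 95% interval -1.28 to 0.02, edgeR adjusted p = 0.341). Rpl8 (chr15:76904078-76906314), a core protein beside the same centre, measured 236 ± 69.2 CPM in napabucasin and 328 ± 74.1 CPM in vehicle livers (log2 fold change -0.48, SE 0.24, edgeR adjusted p = 0.363).

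Rpl5 and Rpl11 join 5S ribosomal RNA in a particle that, when free of ribosomes, binds MDM2 and so stabilises p53. Rpl5 (ENSMUSG00000058558, chr5:107900502-107909005) measured 126, 126, 159.5, 242 and 143 CPM in napabucasin livers, against 139, 226, 258, 210.3 and 298 CPM in vehicle livers, with napabucasin liver 4 and vehicle liver 1 crossing between the groups. Rpl11 (ENSMUSG00000059291, chr4:136028265-136053428) measured 322, 408, 442, 415 and 348 CPM in napabucasin livers, against 528, 364, 408, 327 and 310.2 CPM in vehicle livers, and the napabucasin livers lay within the vehicle range. The log2 fold change was -0.51 (95% interval -1.03 to 0.02, edgeR adjusted p = 0.345) for Rpl5 and 0.00 (95% interval -0.43 to 0.43, edgeR adjusted p = 0.998) for Rpl11. The difference between these genes was not tested.

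Rpl34 measured 77.2 ± 19.1 CPM in napabucasin and 99.2 ± 8.33 CPM in vehicle livers, and Rpl37, a zinc-binding protein, 85.3 ± 26.9 CPM in napabucasin and 116 ± 22.1 CPM in vehicle livers (SD, n = 5 each). Their log2 fold changes were -0.36 and -0.44 (edgeR adjusted p = 0.368 and 0.370).

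The stalk proteins, which recruit elongation factors, lay low together in napabucasin livers 1 and 2. Rplp0 (chr5:115559467-115563727), the base of the stalk, measured 200.2, 267, 434, 582 and 446 CPM in napabucasin livers, against 377, 476, 631, 575 and 637 CPM in vehicle livers. Rplp1 (chr9:61913284-61914542), which pairs with Rplp2 on that base, measured 197, 295, 400.5, 438 and 399 CPM in napabucasin livers, against 388, 397, 538, 408 and 404 CPM in vehicle livers. Rplp2 (chr7:141447370-141451585) measured 60.4, 94.4, 147, 207 and 157 CPM in napabucasin livers, against 149.5, 189, 225, 179 and 171 CPM in vehicle livers. For each of the 3 genes, napabucasin livers 1 and 2 lay below all vehicle livers and napabucasin liver 4 lay among them. The log2 fold changes were -0.48, -0.30 and -0.46 for Rplp0, Rplp1 and Rplp2 (edgeR adjusted p = 0.417, 0.518 and 0.437).

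**Figure D3:**
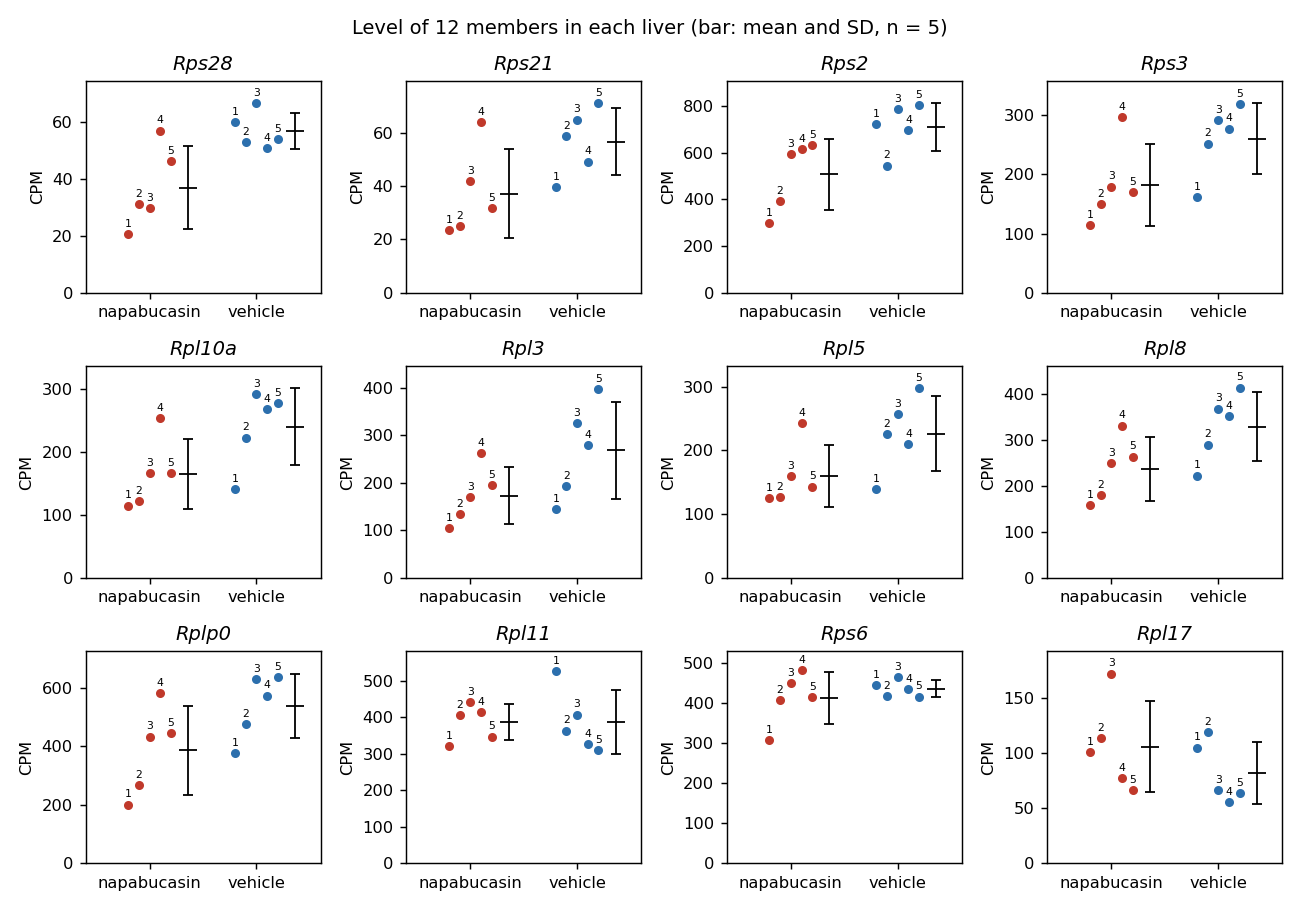
CPM (vertical axis, from 0) of 12 members in each liver, napabucasin left (red) and vehicle right (blue), with replicate numbers beside the points and the mean and SD (n = 5) as a bar to the right of each group. Rps28, Rps21 and Rpl10a lie lower in most napabucasin livers with napabucasin liver 4 among the vehicle livers, and the napabucasin livers of Rpl11 lie within the vehicle range.

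Of the 82 tested members 9 had a fold change above 0. Rpl17 (chr18:75000477-75003381), at the mouth of the peptide exit tunnel, had the highest, 0.37 (95% interval -0.24 to 0.99, edgeR adjusted p = 0.521). It measured 100.4, 113, 172, 76.9 and 66.0 CPM in napabucasin livers, against 105, 119, 65.8, 55.0 and 63.6 CPM in vehicle livers. Only napabucasin liver 3 lay above all vehicle livers. Rpl21 (chr5:146832890-146837032) measured 40.2 ± 12.3 CPM in napabucasin and 36.7 ± 4.54 CPM in vehicle livers, a log2 fold change of 0.13. These genes, chosen after their values were seen, were also the least like the others across the 10 libraries: the correlation of log2 CPM with the median of the members was -0.15 for Rpl17 and -0.40 for Rpl21, where the median of that correlation over 77 members was 0.85. Between pairs of members the median correlation was 0.69. Nuclear genes of oxidative phosphorylation had a median pairwise correlation of 0.83 and mitochondrial ribosomal proteins 0.56 over the same libraries. These correlations describe libraries that share depth and RNA quality within each library.

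Both genes have near-identical processed copies that drew more reads than they did. Rpl17-ps10, identical to the Rpl17 transcript at 99.3% of 555 aligned bases, held 20698 counts over the 10 libraries, Rpl17-ps3 (99.6%) held 17976, and Rpl17 itself held 15844. When pseudogene counts were added to the gene they are named after, an alternative chosen after the data were seen, 72.4% of the Rpl17 sum and 69.1% of the Rpl21 sum came from pseudogenes, and the log2 fold changes were -0.01 and -0.03. The sources used here do not say how reads matching several copies were assigned, and the separate values of Rpl17, Rpl21 and their copies are uncertain.

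Across the members 287 pseudogene rows were named after 59 of the 85 genes, and 138 had a count. Their counts equalled 5.02% to 5.55% of the members' counts in napabucasin libraries and 5.18% to 5.59% in vehicle libraries, ranges that overlapped almost fully. Rps10, a protein of the head, was the extreme, with 400 counts over 10 libraries against 11753 for Rps10-ps2, which matched it at 99.0% of bases. Its 1.99 ± 0.670 CPM in napabucasin and 2.64 ± 1.56 CPM in vehicle livers (log2 fold change -0.43, edgeR adjusted p = 0.590) therefore say little about the gene.

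Levels of different genes were compared per length, as FPKM (fragments per kilobase of gene, scaled to library depth, deposited by the authors). The gene length in FPKM can exceed that of the principal transcript. It is 2491 bases for Rps18, against 560 in its principal transcript, while both are 977 bases for Rps3a1. The order of genes by FPKM therefore depends on the length used. The large-subunit genes ran from 0.676 to 769 FPKM with a median of 112, and the small-subunit genes from 0.990 to 501 FPKM with a median of 133, over the members that passed the filter. In the large subunit Rplp1 was highest, at 686 ± 198 FPKM in napabucasin and 851 ± 127 FPKM in vehicle livers, followed by Rpl36 at 485 ± 123 FPKM in napabucasin and 572 ± 125 FPKM in vehicle livers. In the small subunit Rps15, at 465 ± 80.0 FPKM in napabucasin and 537 ± 45.0 FPKM in vehicle livers, and Rps3a1, at 323 ± 85.5 FPKM in napabucasin and 401 ± 57.1 FPKM in vehicle livers, were highest. Rplp1 was above Rpl36 in each of the 10 livers. None of these 4 genes passed in the comparison of napabucasin with vehicle (log2 fold changes -0.30, -0.23, -0.20 and -0.31, edgeR adjusted p = 0.518, 0.610, 0.585 and 0.495).

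The 4 members lowest in CPM per kilobase of principal transcript were Rpl24, Rpl36al, Rps10 and Rpl13a, the last at 19.1, with Rpl7l1, a paralog that overlaps no gene on its strand, next at 20.4. Rpl24 measured 0.739 ± 0.156 CPM in napabucasin and 0.668 ± 0.167 CPM in vehicle livers, Rpl36al 0.836 ± 0.228 CPM in napabucasin and 1.27 ± 0.490 CPM in vehicle livers, and Rpl13a 20.7 ± 2.76 CPM in napabucasin and 19.3 ± 5.20 CPM in vehicle livers, with Rps10 given above. Each has more than 50% of its principal transcript inside exons of another gene on the same strand in the GENCODE M21 annotation: 71.5% for Rpl24 (in Gm28037), 63.1% for Rpl36al (in Gm49383), 59.3% for Rpl13a (in Gm45713 and Mir5121) and 53.6% for Rps10 (in RPS10-NUDT3). No other member reached this: the next was Rpl19 at 10.7%, which was not low. Overlap with genes on the opposite strand went with no such low level, as in Rpl35 (68.3% overlapped, 112 FPKM) and Rpl23a (55.4%, 173 FPKM). The sources used here do not say how reads in overlapping genes were handled, and its part in these levels was not tested.

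**Figure D4:**
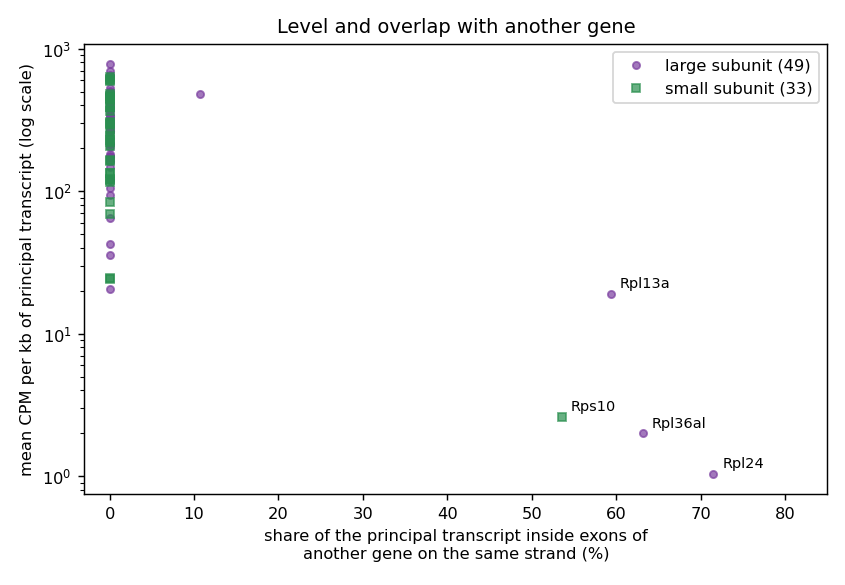
Mean CPM per kilobase of the principal transcript (vertical axis, log scale) against the share of that transcript inside exons of another gene on the same strand (horizontal axis, percent), for 49 large-subunit (circles) and 33 small-subunit genes (squares). The 4 genes beyond 50%, Rpl13a, Rps10, Rpl36al and Rpl24, lie at the bottom of the scale, Rpl13a close to the lowest genes without overlap.

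Of the paralogs, those known from germ cells or muscle were near absent. Rpl3l, the paralog of Rpl3 in heart and skeletal muscle, had 23 counts in all 10 libraries together, Rpl39l, known from testis, had 9, and Rpl10l, also of testis, had 1. These 3 did not pass the filter and got no test. Of the broadly expressed paralogs, Rpl22l1 and Rpl7l1 were below their parent genes. Rpl22l1 had 9.08 ± 1.43 FPKM in napabucasin and 10.6 ± 2.73 FPKM in vehicle livers, where Rpl22 had 34.3 ± 7.70 and 41.4 ± 4.82 FPKM in napabucasin and vehicle livers. Rpl7l1 had 13.3 ± 2.97 FPKM in napabucasin and 16.9 ± 2.51 FPKM in vehicle livers, far under Rpl7 at 148 ± 32.2 FPKM in napabucasin and 163 ± 6.21 FPKM in vehicle livers.

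Rps27l, a target of p53 in human and mouse cells, stood above its parent in FPKM, with 128 ± 38.2 in napabucasin and 151 ± 41.5 in vehicle livers. Rps27 had 44.7 ± 17.8 FPKM in napabucasin and 61.5 ± 16.8 FPKM in vehicle livers. The gene lengths are 1043 bases for Rps27 and 816 for Rps27l, whose principal transcripts have 345 and 499 bases. Rps27rt, named after Rps27, held 5212 counts over 10 libraries against 9347 for Rps27. How reads matching both were assigned is not given, so the level of Rps27 beside Rps27l is uncertain. Log2 fold changes of the paralogs were -0.21 for Rpl22l1, -0.34 for Rpl7l1 and -0.24 for Rps27l, beside -0.26, -0.13 and -0.45 for Rpl22, Rpl7 and Rps27, and none passed (edgeR adjusted p = 0.602, 0.392 and 0.638 for the paralogs). The other parent genes, Rpl10, Rpl36a, Rpl39 and Rps4x, had log2 fold changes of -0.21, -0.29, -0.31 and -0.36. Rpl36al, the paralog of Rpl36a, had -0.59 (edgeR unadjusted p = 0.156) on only 173 counts over the 10 libraries. Rps4l, outside the rule, measured 20.3 ± 8.98 CPM in napabucasin and 21.9 ± 8.33 CPM in vehicle livers. Rps27rt, a gene of 1 exon chosen after its values were seen, measured 30.6 ± 13.7 CPM in napabucasin and 32.3 ± 14.3 CPM in vehicle livers, and Rps19bp1 20.0 ± 2.58 CPM in napabucasin and 20.4 ± 6.38 CPM in vehicle livers.

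Fau, Rack1 and Rpsa, outside the name rule, lay on the same side, with log2 fold changes below 0. Fau (chr19:6057888-6059524), which encodes a ubiquitin-like protein fused to Rps30, measured 134, 173, 244, 262 and 201 CPM in napabucasin livers, against 239, 308, 326, 265 and 256 CPM in vehicle livers. Napabucasin livers 3 and 4 overlapped the vehicle livers and the other 3 lay below them (log2 fold change -0.46, unadjusted p = 0.0477, edgeR adjusted p = 0.326). Rack1, a scaffold on the small subunit, and Rpsa, which sits on its outer face, had log2 fold changes of -0.25 and -0.20 (edgeR adjusted p = 0.534 and 0.625).

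Other genes of translation were read from the same fit, from lists chosen with earlier results of these data known. For every list the shares of all genes to set beside it are 49.9% below 0, and 5.83% lower and 9.34% higher at an unadjusted p under 0.05. All 6 elongation factor genes lay below 0 (median -0.40), and 2 reached an unadjusted p under 0.05. Eef2, the translocase, measured 548, 681, 916, 976 and 1025 CPM in napabucasin livers, against 889, 1135, 1327, 1185 and 1673 CPM in vehicle livers. Vehicle liver 1 was the only vehicle liver within the napabucasin range (log2 fold change -0.58, SE 0.24, edgeR adjusted p = 0.306). Eef1b2, the exchange factor of eEF1A, differed by -0.58 on the log2 scale (SE 0.26, edgeR adjusted p = 0.320).

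Among 27 initiation factor genes 25 lay below 0, with a median of -0.23 and 4 lower at an unadjusted p under 0.05, beside 49.9% and 5.83% of all genes. Eif2s3x, a subunit of the factor that brings initiator transfer RNA, measured 10.1 ± 5.34 CPM in napabucasin and 24.1 ± 17.0 CPM in vehicle livers (log2 fold change -1.26, edgeR adjusted p = 0.285). Eif6, which keeps the subunits from joining too early, measured 23.2 ± 12.4 CPM in napabucasin and 42.6 ± 15.1 CPM in vehicle livers (log2 fold change -0.88, edgeR adjusted p = 0.312). With the replicate block its edgeR adjusted p was 0.0673, and with the block and the length offset it passed (log2 fold change -0.93, edgeR adjusted p = 0.0482), in a range of 0.0482 to 0.757 over the alternatives. Of 16 TOP messages that encode no ribosomal protein, 16 lay below 0 with a median of -0.17. These lists share genes: Eef2 and Eef1b2 are among both the elongation factors and the TOP messages.

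Ribosome biogenesis genes lay below 0 in 37 of 47 cases, with a median of -0.19 and 3 lower at an unadjusted p under 0.05, close to the 5.83% of all genes, and they did not share the library pattern of the members. Their median deviation in napabucasin libraries 1 to 5 was 0.102, -0.089, -0.079, -0.083 and -0.020, against -0.049, 0.201, 0.037, 0.059 and 0.130 in vehicle libraries 1 to 5, so napabucasin library 1 was not low. Nip7, which acts in 60S assembly, measured 9.77, 8.75, 9.50, 9.60 and 9.09 CPM in napabucasin livers, against 11.1, 19.2, 15.04, 15.4 and 12.4 CPM in vehicle livers. All napabucasin livers lay below all vehicle livers (log2 fold change -0.65, SE 0.18, unadjusted p = 0.00308, edgeR adjusted p = 0.221). Rrs1, which helps the 5S particle into the large subunit, had a log2 fold change of -0.64 (edgeR adjusted p = 0.276).

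Genes of RNA polymerase I transcription and of the mTOR pathway showed no such one-sidedness. Of 11 polymerase I genes 5 lay below 0, with a median of 0.12, and Polr1c had the smallest p (log2 fold change -0.39, edgeR adjusted p = 0.395). Of 14 mTOR genes 5 lay below 0, with a median of 0.06. Eif4ebp1, the translation repressor that mTOR phosphorylates, measured 24.4 ± 9.58 CPM in napabucasin and 37.5 ± 6.60 CPM in vehicle livers (log2 fold change -0.62, edgeR adjusted p = 0.313).

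The lower values were not particular to the cytoplasmic ribosome. Of 77 mitochondrial ribosomal protein genes 67 lay below 0, with a median of -0.20, 11 lower and 1 higher at an unadjusted p under 0.05 (beside 49.9%, 5.83% and 9.34% of all genes), and 5 with all napabucasin livers below all vehicle livers (background 0.934%). Mrpl12 measured 34.3, 28.1, 41.4, 50.6 and 34.7 CPM in napabucasin livers, against 45.4, 49.9, 69.5, 65.4 and 77.6 CPM in vehicle livers. Napabucasin liver 4 was the only one above any vehicle liver (log2 fold change -0.70, SE 0.20, unadjusted p = 0.00386, edgeR adjusted p = 0.227). Mrpl9 and Mrpl15 had log2 fold changes of -0.47 and -0.60 (edgeR adjusted p = 0.246 and 0.248). Of 72 nuclear oxidative phosphorylation genes 70 lay below 0 with a median of -0.34, among them Atp5g2 (-0.79) and Cox7c (-0.58), and of 35 proteasome genes 30 lay below 0 with a median of -0.16. In both lists napabucasin library 1 had the lowest median deviation of the 10 libraries, -0.891 and -0.624, with napabucasin library 2 next at -0.319 and -0.322. No gene of these 3 lists passed after adjustment in the edgeR fit. With limma-voom 1 did, Mrpl12 (log2 fold change -0.77, adjusted p = 0.0481), whose adjusted p ran from 0.0481 to 0.520 over the alternatives.

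**Figure D5:**
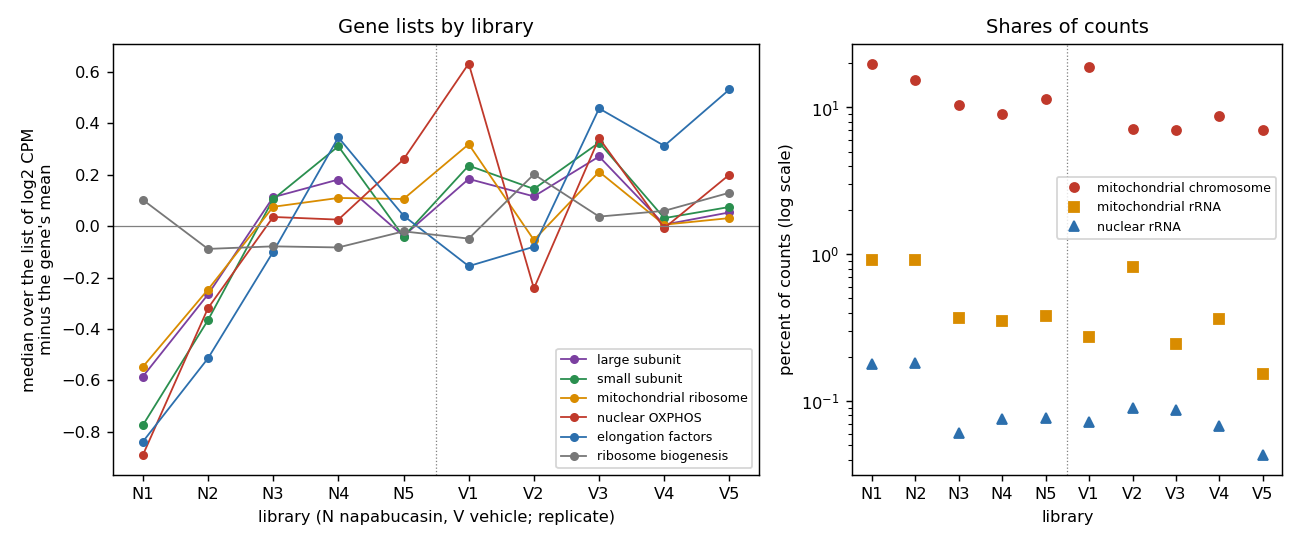
Left, median over each gene list of log2 CPM minus the gene's mean (vertical axis) in napabucasin (N1 to N5) and vehicle (V1 to V5) libraries; lines join the libraries of a list for reading only. Right, percent of counts (log scale) on the mitochondrial chromosome, in mitochondrial rRNA and in nuclear rRNA for the same libraries. Of the 6 lists drawn, all but ribosome biogenesis are lowest in N1, which with N2 holds the most nuclear rRNA counts.

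Summed markers of T and B cells separated the groups, and the sums for the other cell types overlapped. T cell markers were higher in napabucasin livers in 10 of 10 genes, with a summed level of 24.3 to 53.8 CPM in napabucasin livers and 13.8 to 20.2 CPM in vehicle livers, and B cell markers in 8 of 8, with 84.2 to 158.5 CPM in napabucasin livers and 41.3 to 63.7 CPM in vehicle livers. Kupffer, sinusoidal and stellate cell markers were above 0 in 8 of 8 genes each, with overlapping sums of 545 to 2079, 218 to 333 and 365 to 875 CPM in napabucasin livers, and of 279 to 1479, 94.4 to 251 and 286 to 418 CPM in vehicle livers. Of the 11 hepatocyte markers 10 lay below 0, with a median of -0.31. No marker was at 0 in all libraries of a group, and none passed after adjustment in the edgeR fit. With DESeq2 5 T cell, 7 B cell and 1 stellate cell marker passed, where 209 of 26567 genes passed. With limma-voom 3 T cell, 4 B cell and 3 sinusoidal markers passed, where 132 of 14244 genes did. All of these markers were higher in napabucasin livers. The part of cell composition in the ribosomal protein values was not tested.

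Transcript length and base composition did not order the members' fold changes. Over the 77 members whose mean FPKM reached 10, Spearman's rho of the log2 fold change was 0.07 with transcript length and -0.03 with GC content, and over 12773 tested coding genes it was 0.14 and 0.06. These are relations across genes of the same libraries. The members' principal transcripts are short, with a median of 761 bases against 2833 over all tested coding genes. With an offset for gene length in each library the medians were -0.18 for the large and -0.23 for the small subunit.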

How the data were processed

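Livers of 5 mice given napabucasin and 5 given vehicle were sequenced, and groups follow the treatment label. The authors deposited raw counts per gene, as whole numbers. Per the submitters' processing notes, CASAVA, HISAT2 2.0.5, featureCounts 1.5.0-p3 and builds GRCm38 and mm10 were used. The sources used here do not give strand or overlap settings. The FPKM values were deposited by the authors, who scaled counts by gene length and depth.

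Members and gene lists were chosen with earlier results of these data known, by a name rule and hand-written lists. The test was run on the counts with edgeR 4.0.16 under R 4.3.3 (filterByExpr, TMM, robust quasi-likelihood F test, treatment as the only term, Benjamini-Hochberg over 14244 genes, threshold 0.05). Log2 CPM used a prior count of 2. Common dispersion gave a biological coefficient of variation of 0.325. The procedure was tested on simulated data. Nothing says how the labelled biological replicates were housed or processed, so the spread behind each p-value is that among these libraries and may be technical. Alternatives were other scalings and filters, DESeq2 1.42.0, limma 3.58.1 (voom with quality weights, and log2(FPKM + 1) or log2(FPKM + 0.1) for a mean FPKM of at least 0.5), a replicate block, a gene length offset, the mitochondrial chromosome left out, and libraries left out. Added after seeing the data were the mitochondrial leave-out of 3 libraries and the merging of pseudogene counts.

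What a shared replicate number stands for is not labelled. Deviations of same-numbered libraries from their group means correlated at 0.154, 0.227, 0.208, 0.27 and 0.278, each above 0.1. The fit reported did not pair livers, and the replicate block was run as an alternative. The p-values of the block and the counts over pairs of equal number rest on these correlations alone, and on nothing in the design. Only 6 of 10 libraries correlated best with their own number.

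Genes named are, per subunit, the 6 with the smallest p at a mean FPKM of at least 10, the 2 highest and 2 lowest in FPKM, the stalk proteins, paralogs with their parents, Rpl5, Rpl11, Rps6, Rps19 and Rps19bp1, and up to 3 genes of each other list. Rpl17, Rpl21, Rpl13a and Rps27rt were added after their values were seen. Gene coordinates are those of the deposited table; transcripts are from GENCODE M21.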

Additional observations from a re-analysis of the deposited data

Results flagged for a closer look

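A single library stood far from its group in 7 of 130 sets of 5 values examined, and about 6.5 would be so by chance. Each ratio below divides the distance to the closest other library by the group's range, and its critical value is 0.71.

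Napabucasin library 4 was high for Rpl5, at 242 CPM against 126 to 159.5 CPM in the other napabucasin libraries (ratio 0.71). Among vehicle libraries, replicate 3 was high for Rplp1, at 538 against 388 to 408 CPM (ratio 0.869), and replicate 2 for Rps10, at 5.36 against 1.51 to 2.47 CPM (ratio 0.75). Vehicle replicate 1 was low for Rpl7l1, at 44.3 against 62.1 to 64.3 CPM (ratio 0.89), and vehicle replicate 4 was high for Rps27rt, at 57.2 against 21.4 to 30.9 CPM (ratio 0.735). In the mitochondrial ribosome list, napabucasin library 1 was low for Mrpl15, at 20.6 against 37.4 to 42.9 CPM (ratio 0.754). The share of counts on the mitochondrial chromosome was 19.0% in vehicle library 1, against 7.03% to 8.78% in the other vehicle libraries (ratio 0.854).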

How the results depend on the processing

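No ribosomal protein gene passed after adjustment under any alternative run. Over all genes the count of calls, 0, was 1 with library size only, 19 without a filter, 209 with DESeq2, 132 with limma-voom, 1 on log2(FPKM + 0.1), 103 with the replicate block and length offset together, 6 without the 3 libraries highest in mitochondrial share, and 0 to 18 with each library left out (18 without vehicle replicate 1). Members lower at an unadjusted p under 0.05, 2 in the fit reported, numbered 0 with library size only, 9 without a filter, 6 with DESeq2, 10 with limma-voom, 4 on unfiltered FPKM, 16 with the replicate block, 1 with the length offset, 15 with block and offset, 0 without the 3 libraries highest in rRNA share or in mitochondrial share, and 0 to 18 with each library left out. Members higher at an unadjusted p under 0.05, 0 in the fit reported, numbered 1 with limma-voom, where 1616 of 14244 genes were higher. Members below 0, 73, numbered 56 with limma-voom (median over all genes 0.0044), 45 without the 3 rRNA-rich libraries and 61 to 77 with each library left out. Subunit medians stayed below 0 under every alternative, from -0.32 to -0.0071 for the large and from -0.40 to -0.021 for the small subunit. With limma-voom the large-subunit median was -0.094. All lay within 1 SD of the library spread. For the large subunit that SD was 0.233, about the size of its median of -0.23, so a median of 0 would have met it too.

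Of 39 named members, 23 never changed sign. The log2 fold changes that did were as follows. With limma-voom they were 0.032 for Rpl36, -0.016 for Rpl24, 0.30 for Rps19bp1, 0.038 for Rps27l, 0.15 for Rps4l, 0.18 for Rpl11 and -0.013 for Rpl21. Without the 3 libraries richest in mitochondrial counts they were 0.11 for Rpl36, -0.0036 for Rpl24, 0.086 for Rps19bp1, 0.067 for Rpl22l1, 0.21 for Rps27l, 0.42 for Rps4l, 0.091 for Rpl10, 0.0099 for Rpl36a, 0.044 for Rpl7, 0.19 for Rpl11, 0.051 for Rps6, 0.073 for Rps27rt, -0.10 for Rpl21 and 0.010 for Rpsa. With library size only they were 0.029 for Rps19bp1, 0.035 for Rps4l, 0.096 for Rpl11 and 0.0017 for Rps6. On log2(FPKM + 1) they were 0.0062 for Rps19bp1 and 0.0060 for Rpl11. On log2(FPKM + 0.1) they were 0.0084 for Rps19bp1 and 0.0061 for Rpl11. On unfiltered log2(FPKM + 1) they were 0.0062 for Rps19bp1 and 0.0060 for Rpl11. With the replicate block they were 0.016 for Rps19bp1 and 0.018 for Rpl11. With the length offset they were 0.081 for Rps19bp1 and 0.024 for Rpl11. With the replicate block and length offset they were 0.11 for Rps19bp1, 0.039 for Rpl11 and 0.016 for Rps27rt. Without the 3 libraries richest in rRNA they were 0.13 for Rps19bp1, 0.017 for Rps27l, 0.10 for Rps4l, 0.057 for Rpl10, 0.058 for Rpl7, 0.047 for Rpl11, 0.043 for Rps6, 0.053 for Rps19, 0.055 for Rps27rt and -0.18 for Rpl21. With the 1 CPM filter it was 0.0017 for Rpl11. Without the mitochondrial chromosome it was 0.0047 for Rpl11. With pseudogene counts merged they were -0.012 for Rpl17 and -0.034 for Rpl21. With each library left out, ranges that crossed 0 were -0.62 to 0.017 for Rps10, -0.12 to 0.12 for Rps19bp1, -0.28 to 0.14 for Rps4l, -0.073 to 0.12 for Rpl11, -0.14 to 0.010 for Rps6, -0.018 to 0.25 for Rpl13a, -0.34 to 0.23 for Rps27rt and -0.0081 to 0.28 for Rpl21. The cause was not tested.

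After adjustment Mrpl12 passed with limma-voom (-0.77) and Eif6 with the replicate block and length offset (-0.93). The replicate block changed no call after adjustment among the members. Each group has 5 libraries, and low genes such as Rpl24, with under 1 CPM, are limited by depth.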
